A study of Mus musculus with 3 samples.

Results

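Transcripts annotated as retaining an intron were examined in the cytosol of macrophages cultured from the bone marrow of mice, phagocytes of the innate immune system. They were selected on their measured level: of 21848 transcripts of 141862 that the annotation classes as retained_intron, 804 had a mean of at least 1 TPM (a level per transcript length, scaled to the same total in each library) over 3 libraries. These 804 transcripts belonged to 683 parent genes, and the level that chose them is given below as a description. A further 12347 retained_intron transcripts stood above 0 and below 1 TPM, and 8697 were listed at 0.

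The libraries were total RNA depleted of ribosomal RNA, each from 1 µg of cytosolic RNA of C57BL/6J macrophages. All 3 formed 1 group: lipid A at 100 ng/ml for 12 hours, a washout of 12 hours, and a second exposure of 60 minutes to the same dose. The membrane anchor of bacterial endotoxin, lipid A, is sensed through Tlr4. The 3 biological samples carry the same donor entry and nothing says whether the cultures came from separate animals, so the tests measure the spread between these samples. Untreated cells and the nuclear fraction were not analysed here, so the values are levels, not responses.

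Splicing removes introns from a primary transcript in the nucleus before export, and a transcript that keeps an intron is usually held in the nucleus or destroyed after export by nonsense-mediated decay, because introns commonly bring a stop codon into the reading frame. Introns that stay in the mature transcript tend to be short and rich in G and C. In activated macrophages, retention has been described for genes of splicing control and of the interferon response. The annotation class is wider than this: it holds any non-coding transcript model of a coding gene that contains sequence seen as intron in another model, also where the model only begins or ends inside an intron.

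In the 6 examples that follow, a whole intron was kept, which is the form of retention that changes a reading frame. The sequences were read from the annotated transcripts (GENCODE M21, mm10), 5′ to 3′ on the gene's strand. Capitals mark the first 2 and last 2 bases of the intron and the first stop codon met in the frame of the upstream coding exon.
Irf7-210, intron 5 (chr7:141264656-141264724, minus strand): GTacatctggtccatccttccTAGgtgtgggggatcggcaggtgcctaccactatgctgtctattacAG
Cd83-202, intron 1 (chr13:43785251-43785345, plus strand): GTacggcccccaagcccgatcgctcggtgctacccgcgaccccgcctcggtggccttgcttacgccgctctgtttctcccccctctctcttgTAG
Prelid1-202, intron 3 (chr13:55324445-55324526, plus strand): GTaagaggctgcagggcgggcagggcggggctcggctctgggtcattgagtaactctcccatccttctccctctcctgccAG
Tap2-202, intron 6 (chr17:34212068-34212229, plus strand): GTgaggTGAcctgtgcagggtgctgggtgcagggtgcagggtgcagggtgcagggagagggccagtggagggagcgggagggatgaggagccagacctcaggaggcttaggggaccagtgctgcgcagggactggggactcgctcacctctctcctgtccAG
Psmb8-205, intron 3 (chr17:34199381-34199570, plus strand): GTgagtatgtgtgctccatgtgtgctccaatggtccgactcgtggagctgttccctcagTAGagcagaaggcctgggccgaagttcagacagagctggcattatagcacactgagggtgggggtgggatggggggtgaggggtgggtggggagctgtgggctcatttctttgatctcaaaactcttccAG
Rps20-201, intron 1 (chr4:3835292-3835483, minus strand): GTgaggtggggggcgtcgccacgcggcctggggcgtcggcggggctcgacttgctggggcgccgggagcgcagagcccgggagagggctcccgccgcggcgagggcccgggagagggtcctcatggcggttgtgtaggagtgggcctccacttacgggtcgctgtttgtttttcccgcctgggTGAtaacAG
All 6 introns lay between coding exons, began with GT and ended with AG. The stop in Irf7-210 began at base 22 of a 69-base intron, that in Tap2-202 at base 7 of 162 bases, and that in Psmb8-205 at base 60 of 190 bases. In Cd83-202 the first stop began at base 93 of 95 and overlapped the final AG, and in Rps20-201 it began at base 184 of 192. The 82-base intron of Prelid1-202 held no in-frame stop, although its length is not a multiple of 3.

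A second set of sequences shows the commoner form, in which a model only reached into an intron. Capitals mark the AG that ends the intron or the GT that begins it.
H2-K1-215 (chr17:33996655-33996674, minus strand): tttgttttgttttaccctAG
Samhd1-210 (chr2:157101694-157101720, minus strand): GTgggggacgctcgctcatcctcgtac
Vim-203 (chr2:13579369-13579420, plus strand): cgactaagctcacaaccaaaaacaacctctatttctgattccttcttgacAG
Rps16-203 (chr7:28350924-28350991, plus strand): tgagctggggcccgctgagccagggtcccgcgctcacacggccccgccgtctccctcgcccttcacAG
Ctsb-202 (chr14:63135518-63135607, plus strand): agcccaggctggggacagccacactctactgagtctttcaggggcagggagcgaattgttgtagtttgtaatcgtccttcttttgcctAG
H2-K1-215, Vim-203, Rps16-203 and Ctsb-202 began inside an intron and ran through its AG into the next exon. Samhd1-210 ran out of an exon through its GT and ended 27 bases into the intron. H2-K1-215, the highest of the 804, held 20 intronic bases in a length of 457 bases.

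Most of the 804 transcripts held little intron. Intronic bases were counted as those inside an intron of a coding transcript of the gene and in no exon of any coding transcript. Their median was 114.5 bases, or 14.2% of the transcript, against 45.1% in the 12347 retained_intron transcripts above 0 and below 1 TPM. Among the 804, 208 transcripts (25.9%) spanned at least 1 whole intron of a coding transcript, 589 (73.3%) only reached into one, 3 did neither, and 4 had no coding transcript in the gene. In the lower set, 33.5% spanned a whole intron. Only 76 were at least 50% intronic, 163 held fewer than 50 intronic bases, and 13 held none. The threshold is on a level per length, so the model's length and content are not independent of the choice, and these shares are descriptions without a test.

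**Figure D1:**
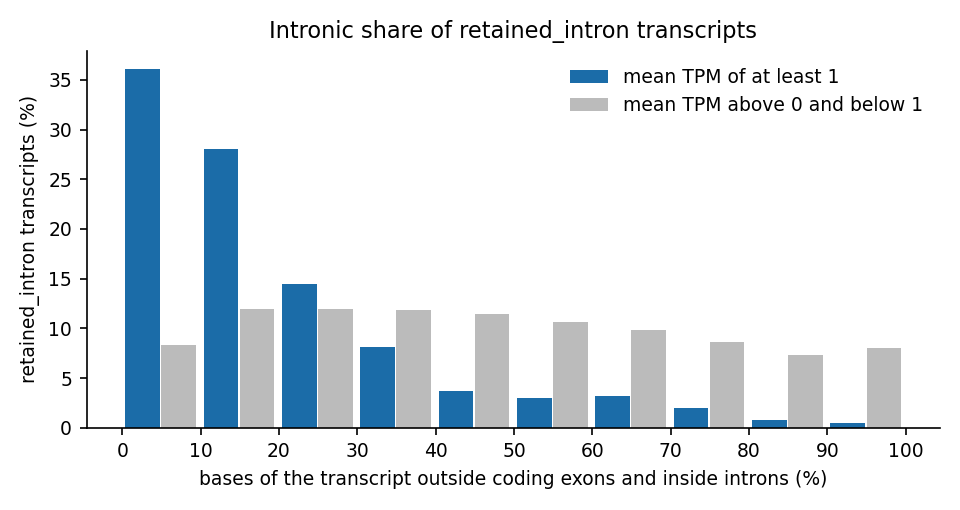
Percent of retained_intron transcripts in each 10-point class of intronic share (x axis, % of the transcript's bases), for transcripts at a mean of at least 1 TPM (blue) and for those above 0 and below 1 TPM (grey). The blue bars are highest in the lowest class, at 36.1%, and fall to 0.5% in the last, while the grey bars lie between 7.34% and 12.0%.

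Where the 589 partial models met the intron was uneven. In 379 of the 581 that held intronic bases, these lay only at the 5′ end of the model, and in 168 only at the 3′ end. Runs at the 5′ end had a median of 78 bases, and 98.2% of 397 ended with AG. Runs at the 3′ end had a median of 180.5 bases, and 97.3% of 188 began with GT. Of the 804 transcripts, 137 had no base of their own, meaning that every base also lay in another transcript of the gene, and they held 28.4% ± 2.36 (SD, n = 3) of the summed TPM of the set.

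The introns that were spanned whole were short. Their 251 distinct introns had a median length of 174 bases, with 68.9% at 300 bases or fewer. Introns spanned by transcripts above 0 and below 1 TPM had a median of 283 bases. The 7888 introns of the same parent genes that no retained_intron transcript spans had a median of 1002 bases, with 23.8% at 300 bases or fewer. In 171 of 223 cases with both kinds in the gene, the spanned intron was shorter than the median of the gene's other introns. Of the 251 introns, 248 had GT and AG at their ends and 1 had GC and AG. Their median GC content was 53.1%, against 50.7% in the introns of the lower set.

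Most of these introns would interrupt the reading frame. Of the 251 introns, 237 lay between coding exons, and 204 of these (86.1%) held an in-frame stop, at a median of 31 bases from the intron's start. The corresponding share was 89.2% in the lower set. Of the 33 without a stop, 14 had a length that is a multiple of 3, so the frame continues into the next exon. The spanned introns rarely held a small RNA gene: Mir6935 lay in the intron of Actg1-209 and Snora70 in that of Rpl10-209.

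**Figure D2:**
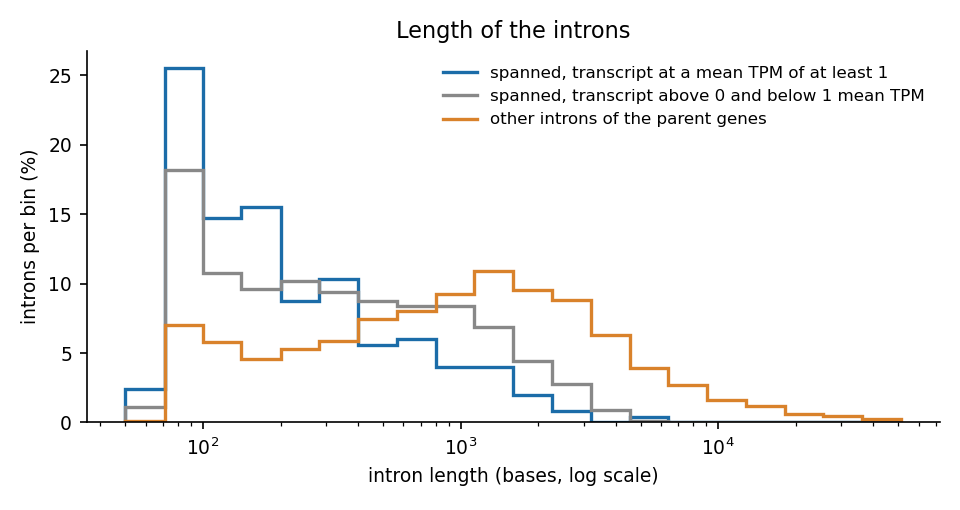
Length of introns in bases (log scale, x axis) and percent of introns per bin (y axis), for 251 introns spanned by transcripts at a mean of at least 1 TPM (blue), 5297 spanned by transcripts above 0 and below 1 TPM (grey) and 7888 other introns of the parent genes (orange). The blue line peaks below 100 bases and the orange line above 1000 bases.

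The 804 transcripts summed to 8736, 7631 and 7402 TPM in replicates 1, 2 and 3. This was 0.793% ± 0.0715 of all transcript TPM, and 8.80% ± 0.131 of the TPM of their parent genes (SD, n = 3). The order of the libraries depends on the scaling. Of the TPM of coding genes alone, without those of the mitochondrial genome, the 804 held 2.53%, 2.63% and 2.70% in replicates 1, 2 and 3. Levels were skewed: the median was 2.70 TPM, 134 transcripts reached 10 TPM and 10 reached 100 TPM. The 15 highest held 40.0% ± 2.13 of the summed TPM (SD, n = 3). In every library, 606 of the 804 stood at 1 TPM or more, and for 448 the authors' lower bound on TPM also stood at 1 or more in each library.

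The highest transcript was H2-K1-215, from the gene of a classical MHC class I heavy chain. It stood at 839, 707 and 1206 TPM in replicates 1, 2 and 3, with 39.6%, 43.7% and 50.8% of the gene's abundance. Level and share were both highest in replicate 3. It had no base of its own, and its parent belongs to a family of near-identical H2 genes, so its level depends on how reads were divided among models. Itm2b-202, from a membrane protein gene that restrains amyloid processing, stood at 412, 326 and 354 TPM. Ctsb-202, from the gene of the lysosomal protease cathepsin B, stood at 582, 170 and 231 TPM, so replicate 1 lay far above the other 2 libraries. The authors' second tables, described at the end, gave 477, 452 and 427 TPM for Ctsb-202, without that gap. Aif1-205 (Iba1, an actin-binding protein of macrophages) stood at 272, 206 and 222 TPM, and it held no intronic base at all by the definition above. Vim-203, from the gene of the filament protein vimentin, stood at 214, 245 and 211 TPM, a narrow range.

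Among the next 10, 4 came from ribosomal protein genes. Rps20-201, which keeps the 192-base intron printed above, stood at 220, 163 and 116 TPM. Rpl13a-213 stood at 123, 151 and 72.8 TPM, Rps16-203 at 114, 115 and 75.5 TPM, and Rpl15-206 at 88.8, 98.6 and 74.8 TPM. All 4 were lowest in replicate 3. Ribosomal protein genes have many processed pseudogenes of like sequence, and reads shared with these were not tested. The deposited SD of read assignment was 0.636% of the count for Rps20-201, 1.43% for Rps16-203, 3.16% for Rpl13a-213 and 3.21% for Rpl15-206, against a median of 9.47% over the 804.

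The other 6 were from genes of immune cells and membranes. Rgs1-203, from a regulator of G protein signalling, stood at 211, 197 and 82.0 TPM. Cd83-202, from the gene of an activation marker of antigen-presenting cells, stood at 108, 123 and 52.0 TPM. Both were lowest in replicate 3. Psmb8-205, from the gene of an immunoproteasome subunit, stood at 119, 79.9 and 78.1 TPM, highest in replicate 1. Samhd1-210, from a nucleotide hydrolase that restricts viruses, stood at 90.6, 98.2 and 88.6 TPM. Fxyd5-214, from a modulator of the sodium pump, stood at 125, 107 and 93.3 TPM. Ms4a6c-202, from a macrophage membrane protein gene, stood at 97.0, 76.9 and 77.6 TPM. Samhd1-210 varied least of these 6. The 92-base intron that Fxyd5-214 spans is exonic in another coding transcript for all but 7 bases.

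**Figure D3:**
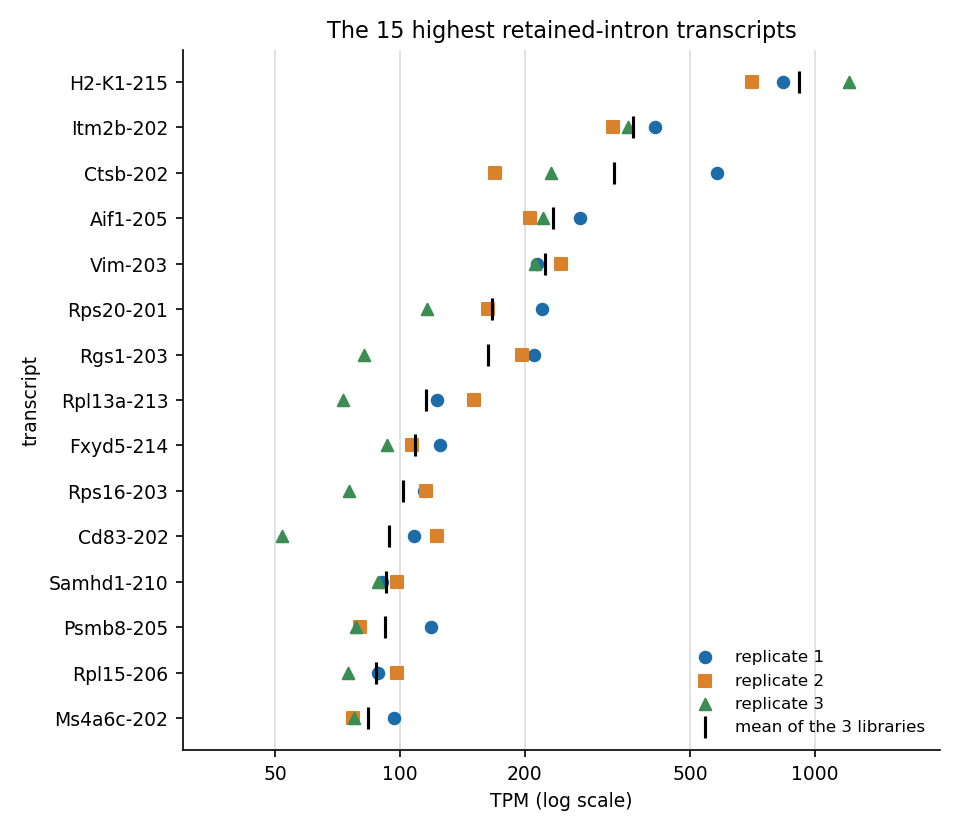
TPM (log scale, x axis) of the 15 highest retained-intron transcripts in each of 3 libraries (symbols) with the mean as a black bar. H2-K1-215 is the highest in each library, and Ctsb-202 and Rgs1-203 have a library that stands apart, replicate 1 above and replicate 3 below the others.

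The share of the gene (IsoPct, the percent of the gene's abundance given to a transcript) was small for most. Its median over the 804 was 16.8%, with 269 transcripts under 10% and 70 under 1%. In 69 transcripts the mean share was at least 50%, 55 of them in every library, and 127 were the highest transcript of their gene. The 10 with the largest shares among genes at 10 TPM or more ran from Olfr56-205 at 99.4% ± 0.310 to Rps16-203 at 75.5% ± 1.59 (SD, n = 3). The SD of each share was under 3 percentage points. By the chi-square test with the assignment SD, described below, 5 of the 10 still varied in their part of the gene's counts: Rps20-201, Prelid1-202, Ncl-202, Tap2-202 and Tmem132a-203. This test called 35.2% of the 804 that were tested, 22.2% of all transcripts at 1 TPM or more and 18.0% of all tested.

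These 10 were of several kinds. Rps20-201 held 93.0%, 90.6% and 91.2% of its gene in replicates 1, 2 and 3, and Tap2-202 held 78.1%, 81.2% and 77.6%. Tap2 is a subunit of the transporter that carries peptides to MHC class I. Prelid1-202, from a gene for lipid transport into mitochondria, held 80.8%, 84.0% and 82.1%. Ncl-202, from the gene of the nucleolar protein nucleolin, spanned 2 introns and held 82.5%, 84.2% and 82.2%. Tap2-202, Prelid1-202 and Ncl-202 were each highest in replicate 2, by at most 4 percentage points. Mrpl57-202, from a mitochondrial ribosomal protein gene, held 94.4%, 94.2% and 94.4%, with 79 intronic bases ahead of the coding exon. Chic2-202 held 91.1%, 91.8% and 90.2%, with 51 intronic bases at its 3′ end. Neither of these models spans an intron.

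For 5 of the 10, a gene lies on the other strand, and no strand setting is given. Prelid1-202 overlaps Mxd3, and Tap2-202 overlaps Gm15821 and Gm20496. Olfr56-205, in an odorant receptor gene, held 99.4%, 99.7% and 99.1% of its gene at 15.9, 7.59 and 14.0 TPM, and overlaps Gm12188 and Olfr1396. Tmem132a-203 spanned introns of 412 and 368 bases and held 91.2%, 92.0% and 90.8% at 39.5, 34.1 and 39.5 TPM. It overlaps Slc15a3, the gene of a lysosomal peptide transporter, which stood at 242, 178 and 220 TPM. Gm21188-202, at 40.0, 30.6 and 25.2 TPM, was 61.6% intronic and overlaps Gm24798 and Gm31544. Reads of such pairs cannot be told apart here. In all, 179 of the 804 transcripts overlapped a gene on the other strand, with a median of 2.63 TPM against 2.70 TPM over all 804.

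**Figure D4:**
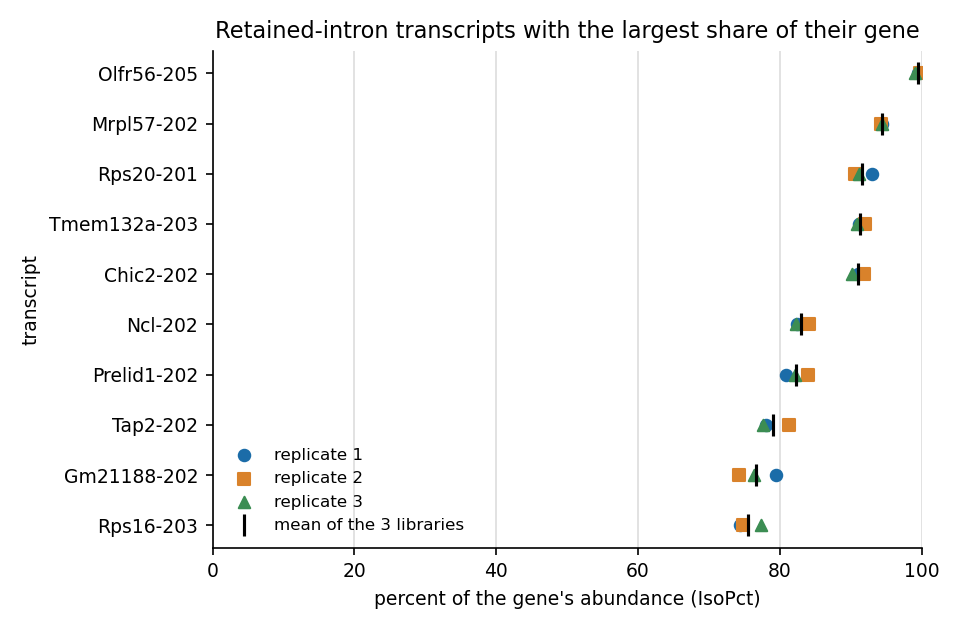
Percent of the gene's abundance (x axis) held by the 10 retained-intron transcripts with the largest mean share among genes at 10 TPM or more, in each of 3 libraries (symbols), with the mean as a black bar. All values lie above 70% and the 3 libraries of each transcript lie close together.

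Genes of antigen presentation held 15 of the transcripts. Of the 20 list genes at 1 TPM or more with a retained_intron model, 11 (55%) had a transcript at 1 TPM or more, against 683 of 5819 (11.7%) over all such genes and 514 of 2622 (19.6%) over those at 10 TPM or more. A gene of high level reaches the threshold with a small share, so these percentages are descriptions. The median share of the gene was 2.48%, with a range of 0.06% to 79.0%. All retained_intron transcripts together held 10.4%, 11.5% and 15.8% of the list's TPM in replicates 1, 2 and 3, highest in replicate 3, where H2-K1-215 was also highest. Psmb8-205 held 49.7%, 48.2% and 44.7% of its gene, and Tap2-202 stood at 31.9, 19.2 and 26.2 TPM.

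Interferon-stimulated genes held 21 transcripts, in 13 of 30 genes (43.3%). The median share was 3.59%, the highest being Samhd1-210 with 20.2%, 31.0% and 27.1% in replicates 1, 2 and 3. Irf7, a transcription factor that drives type I interferon genes, had 3. Irf7-210, which keeps the 69-base intron printed above, stood at 44.5, 30.9 and 25.6 TPM and held 4.72%, 5.57% and 4.37% of its gene. Irf7-206, which keeps the 174-base intron 7, stood at 8.93, 5.50 and 4.58 TPM. Irf7-213 spans all 9 introns of the coding model and stood at 2.28, 0.97 and 1.40 TPM, or 0.217% ± 0.0404 of the gene (SD, n = 3). The model that keeps every intron was thus the lowest of the 3 in each library. The 3 models share exons and introns, and neither Irf7-210 nor Irf7-206 had a base of its own.

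NF-kB subunits and feedback genes held 7 transcripts in 5 of 18 genes (27.8%). Tnip3-205, from a gene whose product binds the deubiquitinase A20, was the highest at 38.8, 33.7 and 21.8 TPM, with 32.6%, 33.0% and 31.7% of its gene. Tnfaip3, which encodes A20, had 2. Tnfaip3-206 stood at 1.65, 0.92 and 3.07 TPM with 0.61%, 0.32% and 2.03% of the gene, and Tnfaip3-205 at 1.30, 0.81 and 1.88 TPM with 0.49%, 0.28% and 1.24%. Both were highest in replicate 3, where the gene as a whole was lowest at 151 TPM against 268 and 289 TPM. Nfkbia-202, from the gene of the inhibitor IκBα, stood at 2.05, 1.40 and 1.08 TPM, or 0.29% ± 0.07 of the gene (SD, n = 3). Rela-203, from the gene of the p65 subunit, was listed at 0 in replicate 1 and stood at 3.79 and 3.31 TPM in replicates 2 and 3.

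Cytokine and chemokine genes held 6 transcripts in 5 of 10 genes (50%), all with small shares, from 0.183% to 2.28%. Ccl5-202, from the gene of a chemokine for T cells, stood at 9.57, 5.14 and 13.1 TPM and held 0.16%, 0.15% and 0.24% of a gene at 6166, 3348 and 5372 TPM. Tnf, which encodes the cytokine, has no retained_intron model in the annotation, nor have Zfp36, Ifit2, Socs3, Acod1, Lyz2 and B2m. For early response and mRNA decay genes, 4 of 7 (57.1%) had a transcript at the threshold, of which Klf6-202 was highest at 3.73, 1.88 and 1.74 TPM. In the lipid A receptor pathway, 2 of 22 genes (9.09%) had one. Cd14-202, from the gene of the co-receptor that hands lipid A to Tlr4, keeps intron 1 and stood at 18.9, 27.9 and 16.4 TPM, with 10.61%, 10.03% and 11.66% of its gene. This 91-base intron has no in-frame stop. The level followed that of the gene, at 178, 278 and 140 TPM.

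Genes of macrophage identity and the lysosome held 17 transcripts in 11 of 22 genes (50%), with a median share of 3.31%. The highest, Ctsb-202, held 23.4%, 9.66% and 11.6% of its gene in replicates 1, 2 and 3, so both its level and its share were highest in replicate 1. Ncf4-204, from the gene of a subunit of the phagocyte oxidase, was listed at 0 in replicate 1 and stood at 15.4 and 1.53 TPM in replicates 2 and 3. For metabolic genes of the sugar pathways, citrate cycle and respiratory chain, 4 of 40 (10%) had one, the highest being Cox4i1-203 at 21.02, 16.16 and 19.63 TPM. Of the ribosomal protein genes, 12 of 64 (18.8%) had one, with a median share of 16.0%.

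Genes that encode the splicing machinery are known for introns that detain their transcripts in the nucleus. In these cytosolic libraries, 6 of 28 SR protein and CLK kinase genes (21.4%) had a transcript at the threshold, as had 5 of 27 hnRNP and helicase genes (18.5%) and 6 of 37 core spliceosome genes (16.2%). Over all genes the shares were 11.7% at 1 TPM or more and 19.6% at 10 TPM or more. Srsf1-203 stood at 3.94, 5.59 and 3.66 TPM, Hnrnpm-213 at 11.0, 6.54 and 5.68 TPM and Snrpa-205 at 8.52, 4.75 and 5.41 TPM. For Hnrnpm-213 the mean in the second tables was under 10% of the mean in the first. The 1 intron that Srsf1-203 spans is exonic in another coding transcript. The kinase genes Clk1 and Clk4, and Srsf5, Srsf7 and Tra2a, all had retained_intron models and none at 1 TPM. Their highest models were Clk1-202 at 0.16, 0.09 and 0.44 TPM, Clk4-210 at 0.37, 0.19 and 0.49 TPM, and Srsf5-212 at 0.60, 0.58 and 1.63 TPM. Srsf7-206 stood at 0.30, 0.34 and 0.53 TPM and Tra2a-203 at 0.15, 0.12 and 0.40 TPM. All 5 were highest in replicate 3, as were 46.3% of the 1537 retained_intron transcripts of 0.2 to 1 TPM. Among the 12347 above 0 and below 1 TPM it was 54.7%. Together the retained_intron models of Clk1 held 6.21%, 3.26% and 14.5% of the gene in replicates 1, 2 and 3, and those of Clk4 held 13.2%, 12.4% and 27.4%.

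Factors that export messenger RNA or act in its surveillance were counted in the same way. Among export factors, 4 of 18 genes (22.2%) had a transcript at the threshold, the highest being Zc3h11a-207 at 3.91, 3.58 and 3.39 TPM, of which 77.5% was intronic. Among nonsense-mediated decay factors, 1 of 9 (11.1%) had one, Dhx34-205 at 1.33, 1.10 and 1.34 TPM. Over all genes it was 11.7% at 1 TPM or more and 19.6% at 10 TPM or more.

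Whether the libraries differed beyond counting noise was tested per transcript by a chi-square test with 2 degrees of freedom on expected counts, at a Benjamini-Hochberg adjusted p of 0.05. Of the 804, 801 had at least 30 counts in sum. Counts varied between libraries in 629 (78.5%), against 71.1% of 30808 transcripts tested in all and 78.3% of those at 1 TPM or more. The transcript's part of the gene's counts varied in 596 (74.4%), against 69.9% of 25885 transcripts tested in all and 73.7% of those at 1 TPM or more. Both counts thus lay near the background of transcripts of like level.

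Counts of overlapping transcripts also carry the error of dividing reads among them. With the deposited SD of that division added to the counting variance, an alternative chosen after the values were seen, 391 of 801 (48.8%) varied in level, against 37.0% of all tested and 51.5% of those at 1 TPM or more. In their part of the gene's counts, 282 of 801 (35.2%) varied, against 18.0% of all tested and 22.2% of those at 1 TPM or more. The coding transcripts of the same genes at 1 TPM or more gave 33.4%, close to the 35.2%. The smallest adjusted p in this chi-square test with assignment SD was that of Ctsb-202, at 4.46e-253, followed by H2-K1-215, at 4.52e-162. Pirb-203, from an inhibitory receptor gene with close paralogs, gave 2.19e-23, at 28.7%, 18.7% and 17.2% of its gene. In the second tables H2-K1-215 was again highest in replicate 3, at 240, 247 and 355 TPM, while Pirb-203 stood at 21.7, 19.6 and 18.4 TPM. Rps16-203 gave 0.638 and Mrpl57-202 gave 0.985. By list, the test without the assignment SD, for which the background was 69.9% of all tested and 73.7% at 1 TPM or more, called 13 of 15 transcripts of antigen presentation genes, 15 of 21 of interferon-stimulated genes and 7 of 7 of NF-kB genes. It called 14 of 17 of macrophage genes, 11 of 13 of ribosomal protein genes, 4 of 6 of cytokine genes and 3 of 4 of early response genes. It called 3 of 5 of metabolic genes, 2 of 4 of export factors and 2 of 2 of the lipid A receptor pathway, and the adjusted p of the decay factor transcript Dhx34-205 in this chi-square test was 0.686. Of the splicing lists it called 5 of 6 for SR proteins and CLK kinases, 5 of 5 for hnRNPs and 6 of 6 for the core spliceosome.

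The 5 transcripts with the largest spread of log2(TPM + 1) among those at 5 TPM or more were each near 0 in at least 1 library. Ncf4-204 is given above. Tmem59-205 was listed at 0 in replicate 1 and stood at 11.0 and 7.29 TPM in the others, and Tpt1-208 stood at 0.26, 15.5 and 4.41 TPM. Ppia-203 stood at 14.5, 0.32 and 0.52 TPM, and Morc3-208 at 11.6, 0.04 and 6.84 TPM. The authors' bounds on TPM of Tmem59-205 did not overlap between replicates 1 and 2, at most 2.80 against at least 7.01 TPM. The highest library was replicate 1 for Ppia-203 and Morc3-208 and replicate 2 for the other 3. In the second tables Ppia-203 kept its gap, at 32.4, 0.00352 and 0.292 TPM, while Morc3-208 stood at 7.74, 4.36 and 3.33 TPM and Ncf4-204 at 0.538, 1.68 and 1.40 TPM. At the other end, Slc15a3-203 stood at 14.4, 14.4 and 14.9 TPM and Manf-205 at 16.1, 16.6 and 16.6 TPM. Plekhj1-206 stood at 6.03, 6.23 and 5.94 TPM, Pirb-205 at 5.08, 5.48 and 5.10 TPM, and Unc93b1-202 at 11.7, 11.2 and 12.2 TPM. Unc93b1 escorts nucleic acid receptors of the Toll-like family to endosomes.

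The library with the highest share of the gene was compared by intronic content. Over all 804 transcripts, the share of the gene was highest in replicates 1, 2 and 3 for 266, 271 and 267, an even split. By intronic content, a division chosen after the values were seen and given without a test, the share was highest in replicate 3 for 51 of 157 under 5% intronic (32.5%), 100 of 356 at 5 to 20% (28.1%) and 68 of 211 at 20 to 50% (32.2%). It was highest there for 48 of 76 at 50% or more (63.2%). Replicate 3 had a part in choosing these 76 through the mean TPM, and some of them passed only through it. Clec4e-205, at 50.9% intronic, is an example. The 48 of 76 and all counts drawn from the 76 carry this choice, so they are descriptions and not support for a difference. An alternative added after the values were seen chose transcripts on replicates 1 and 2 alone. In share, replicate 3 was then highest for 36 of 68 (52.9%) at 50% intronic or more and 196 of 736 (26.6%) under 50%. Among 1537 retained_intron transcripts of 0.2 to 1 TPM, 52.2% were highest in replicate 3, and among 1210 coding transcripts of the same genes 29.7%. The 76 came from 68 genes. With the 7 from the paralogs Lilrb4a and Lilr4b left out, all 7 highest in replicate 3, it was 41 of 69. By the test without the assignment SD, 54 of the 76 (71.1%) varied in their part of the gene's counts and 538 of 721 (74.6%) under 50% intronic, near the 69.9% of all tested. With the assignment SD included, 43 of the 76 (56.6%) varied and 236 of 721 (32.7%) under 50% intronic, against 22.2% of all at 1 TPM or more, and 35 of the 43 were highest in replicate 3. The assignment SD had a median of 3.08% of the count in the 76 and 10.6% in those under 50% intronic. This test thus allowed less error for the 76, and the contrast between the classes depends on the error model.

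A list of 10 genes was set up for nuclear long RNAs. Of these, Malat1, Neat1, Rn7sk, Rpph1 and Gm42418 stood at 1 TPM or more, and all 5 were highest in replicate 3. The values do not show whether Gm42418, at 35.2, 21.5 and 73.1 TPM in replicates 1, 2 and 3, is a nuclear RNA. Malat1, a long RNA held in nuclear speckles, stood at 112, 90.6 and 452 TPM in replicates 1, 2 and 3, and Neat1, the scaffold of paraspeckles, at 10.9, 7.10 and 29.7 TPM. Of the other 5, Pvt1 was highest in replicate 1 at 0.49, 0.33 and 0.42 TPM, Meg3 was above 0 only in replicate 2 at 0.03 TPM, Kcnq1ot1 stood at 0.01, 0.01 and 0.04 TPM, and Miat and Snhg11 were listed at 0. The list summed to 49990, 57120 and 108100 TPM, nearly all from Rn7sk, at 27780, 26910 and 68230 TPM, and Rpph1, at 22060, 30090 and 39330 TPM. The part of these RNAs in the result on the 76 transcripts was not tested. Levels were compared by the median difference in log2(TPM + 1) between a library and the mean of the others. For the 76 it was 0.10, -0.28 and 0.10 in replicates 1, 2 and 3, and for the 724 under 50% intronic 0.15, -0.02 and -0.10. All transcripts at 1 TPM or more had 0.17, -0.05 and -0.13. In replicate 3 the median was above 0 for the 76 and below 0 for the 724 and for all at 1 TPM or more. For retained_intron transcripts of 0.2 to 1 TPM it was 0.077 in that library. Over all 804 the median in replicate 3 was -0.089, and it was 0.086 with TPM rescaled over coding genes. Its sign thus depends on the scaling. TPM was highest in replicate 3 for 46.1% of the 76, 20.2% of the 724 and 13.8% of all at 1 TPM or more. Replicate 3 had a part in choosing the 76, so these values are descriptions.

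**Figure D5:**
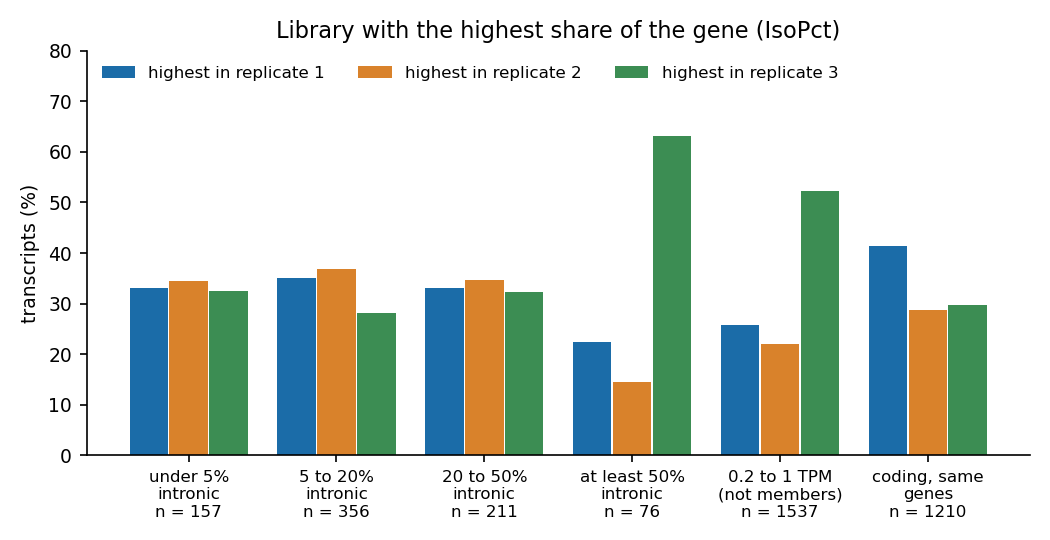
Percent of transcripts (y axis) whose share of the gene was highest in replicate 1, 2 or 3 (colours), for 4 classes of the 804 transcripts by intronic content, for retained_intron transcripts of 0.2 to 1 TPM and for coding transcripts of the same genes. Replicate 3 has 63.2% of the class at least 50% intronic and 28.1% to 32.5% of the other 3 classes. It also had a part in choosing the transcripts through the mean TPM.

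A second set of tables, made by the authors directly from the reads, gave lower support for many. Of the 804, 417 stood at 1 TPM or more there, 82 were under 0.1 TPM, and 22 were listed at 0 in each library. TPM was lower in the second tables for transcripts in general, with a median ratio to the first of 0.446 over all at 1 TPM or more and 0.431 over the 804. A value under 10% of the first was found for 133 of the 804 (16.5%), against 49 of 1210 coding transcripts of the same genes (4.05%). Among those named, Tmem59-205 was at 0 in all 3 libraries, Cox4i1-203 stood at 1.67, 0.182 and 0.993 TPM, and Dhx34-205 stood at 0.0659 TPM on average. Hnrnpm-213 stood at 1.42, 0 and 0.458 TPM there, with a mean share of 4.48% against 22.4% in the first tables. Tpt1-208 stood at 0.0758, 0.416 and 0.492 TPM. Large shares of the gene were seen there too, at 92.2% for Rps20-201, 76.3% for Tap2-202 and 93.4% for Tmem132a-203. Of the transcripts at least 50% intronic, 51 of 76 had their highest share in replicate 3 in the second tables. These are the same 76, which replicate 3 had a part in choosing.

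At the threshold, the nearest transcripts above were Myg1-204 and Batf2-204 at 1.00 TPM and Clec4e-205 at 1.01 TPM. The nearest below were Psmb8-206 at 0.997 TPM, Ptprc-210 at 0.993 TPM and Axl-208 at 0.990 TPM. Clec4e-205 stood at 0.49, 0.31 and 2.22 TPM and Ptprc-210, which is 91.5% intronic, at 0.69, 0.44 and 1.85 TPM. Replicate 3 carried Clec4e-205 over the threshold, while Ptprc-210 lay below it with and without replicate 3.

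Expected counts per library were 46545930 to 53363855, so a transcript listed at 0 could have held up to 3 counts, or 0.0562 to 0.0645 CPM (counts scaled to the library total), a limit that covers counting error only. All 42 genes of the macrophage and lysosome list stood at 1 TPM or more. The 13 neutrophil markers summed to 9.76 to 12.1 TPM with Ly6g and Retnlg at 0, and the 13 T and NK cell markers to 36.1 to 48.8 TPM with Cd3g, Trbc1, Ncr1 and Klrb1c at 0. The 11 B cell markers summed to 5.88 to 13.2 TPM, the 12 stromal markers to 0.77 to 10.6 TPM, and the 9 erythroid markers found to 0.27 to 0.42 TPM. Some markers stood at a mean of 1 TPM or more. These were S100a8, S100a9 and Mmp8 (neutrophil), Cd28 and Cd4 (T and NK), Cd22 and Cd79b (B cell) and Col1a1 (stromal). In replicates 1, 2 and 3, Cd28 stood at 28.6, 29.9 and 24.3 TPM and Cd4 at 16.65, 18.8 and 11.5 TPM. Cd22 stood at 10.9, 4.07 and 6.05 TPM. None of the 804 transcripts came from a gene of these 5 lists.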

How the data were processed

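Total RNA was sequenced in 3 libraries of 1 group, grouped and numbered by the labels, on mm10 with GENCODE M21. Per the file headers, the authors deposited expected counts and TPM per gene and transcript, the percent of the gene's abundance per transcript (IsoPct), and other estimates: the SD of each count and bounds on TPM. A second set of tables, made by the authors directly from the reads, holds estimated counts and TPM. Expected counts were used rounded to whole numbers. No source used here names the aligner, the quantification tools or the strand setting.

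Biotypes came from the second tables, which lack 95 transcripts of the first. Introns of at least 30 bases and sequences came from the M21 annotation and transcripts. The reading frame and intron numbers are those of the coding transcript with the highest TPM that has the intron. TPM is scaled over all RNA, so the small RNAs in a library lower all other values.

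The spread between libraries was tested by chi-square tests in scipy 1.17.1 with Benjamini-Hochberg adjustment over all transcripts with at least 30 counts, checked on simulated data. Log2 differences used log2(TPM + 1). Scaling alternatives used edgeR 4.0.16 (TMM) and DESeq2 1.42.0 (size factors) in R 4.3.3. Other alternatives were the second tables, rescaled TPM, other thresholds, pseudocounts and count minimums, and each library left out. TPM was rescaled over coding genes without those of the mitochondrial genome. Tables used numpy 2.4.6 and pandas 2.3.3, and figures matplotlib 3.10.9.

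The members, gene lists and tests were chosen with earlier results of these data known. Transcripts named were the 15 highest in TPM, the 10 highest in IsoPct among genes at 10 TPM or more, all of preset genes, the highest of each list, the 5 largest and 5 smallest in SD, the 3 on each side of the threshold and 3 with the smallest adjusted p of the share test without the assignment SD, the highest in TPM of 5 that were at 0 within computing precision (the others were Clec4e-206 and Lilrb4a-209). Members named beyond these (Actg1-209, Rpl10-209) and the intronic classes were chosen after their values were seen.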

Additional observations from a re-analysis of the deposited data

How the results depend on the processing

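No paired analysis was possible because the series has 1 group. The number of transcripts was 511 in the second tables, 1803 with TPM rescaled over coding genes, 1303 at 0.5 TPM and 499 at 2 TPM, and 808 to 837 with a library left out. Those that span an intron numbered 110, 361 and 103 in the second tables, at 0.5 TPM and at 2 TPM, and the median intronic percent was 17.1 at 0.5 TPM and 12.4 at 2 TPM. The median share of the gene was 11.9% in the second tables and 16.5% to 17.2% with a library left out. The share of all TPM was 0.363% in the second tables, 2.62% of coding-gene TPM after rescaling, and 0.752% to 0.819% with a library left out. With the assignment SD added, 391 in place of 629 varied in counts and 282 in place of 596 in their part of the gene's counts, and with a library left out 449 to 487 and 417 to 451. Shares of at least 50% numbered 65 to 70 with a library left out. The median log2 difference of replicate 1 went from 0.14 to 0.0045 with TMM, -0.081 with rescaled TPM and -0.0050 in the second tables, and that of replicate 3 from -0.09 to 0.086 with rescaled TPM. Among transcripts at least 30% and at least 70% intronic, 83 of 171 and 18 of 26 had their highest share in replicate 3. Both sets were again chosen with replicate 3 in the mean TPM. For 54 named transcripts, TPM moved by over 1 SD in the second tables in 43 and IsoPct in 34. Leaving out 1 of 3 libraries cannot move a mean by 1 SD, so this measure says nothing on stability there. Without replicate 1, Ctsb-202 stood at 200.7 TPM against 327.7 TPM with all libraries. The cause of these shifts was not tested. Depth limits values near 0, and the division of reads among models limits shares.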
